A study of Homo sapiens with 6 samples.

Results

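The endoplasmic reticulum folding and stress genes described here are 36 genes, taken by symbol from the 62700 genes of the deposited count table. They comprise 11 chaperones and co-chaperones, 6 disulfide isomerases and oxidases, 4 stress sensor genes counted with XBP1, 6 genes of the ATF4 branch, and 9 degradation and translocon genes. All 36 were found, and 35 passed the filter on low counts. The cells carry the label MKN-45, a gastric adenocarcinoma line of human origin, and were grown as 3 control cultures and 3 cultures labelled NNMT knockdown and harvested 48 h after transfection. NNMT encodes nicotinamide N-methyltransferase. The controls are a negative-control shRNA by genotype label, a non-targeting siRNA by treatment protocol, and untouched cells by the design text. The labelled knockdown is an shRNA in the treatment label and an siRNA in the protocol. All 6 cultures share the line and the medium, and no label says whether a knockdown came from 1 clone or 1 target sequence.

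Proteins that enter the secretory pathway fold in the endoplasmic reticulum, where chaperones bind unfolded chains and isomerases form and rearrange disulfide bonds. When unfolded protein builds up, the membrane sensors encoded by ATF6, ERN1 (IRE1-alpha) and EIF2AK3 (PERK) start the unfolded protein response. ATF6 and the spliced form of XBP1 activate chaperone and degradation genes, while PERK raises translation of ATF4, whose targets include amino acid and cell death genes. Secretory epithelia, the stomach lining among them, carry a large load of such folding.

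Library totals ran from 40558680 to 56067484 reads, with 3.9% to 4.82% of reads from the mitochondrial genome. NNMT itself had 0, 8 and 12 reads in control replicates 1, 2 and 3 and 2, 8 and 14 reads in the corresponding replicates labelled knockdown, so a lowering of NNMT was not detectable at this depth. Of 18 gastric and intestinal marker genes, 11 lay below 1 CPM (counts per 1e6 reads) in every library, and CDX1, CDX2, GKN1 and LIPF had 0 reads in all 6. The other 7 passed 1 CPM in at least 1 library. Among them the gastric mucin genes MUC6 and MUC5AC lay at 25.7 to 84.1 and 3.67 to 42.5 CPM, TFF1 at 1.64 to 8.36 CPM and CEACAM5 at 0.289 to 26.8 CPM. The 5 epithelial markers were present, EPCAM at 17.2 to 40 CPM and KRT19 at 898 to 1261 CPM. Markers of the labelled cell type were thus present in part and absent in part, and the cells are called by their label only.

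The promoters of many members carry the DNA elements through which the unfolded protein response is known to act. The choice of genes did not use sequence, but it took known genes of this response. A high share of these elements among the members is therefore not an independent result. RefSeq promoters (GRCh38.p14, 250 bases before to 50 after each transcript start) were matched for 33 of the 36 members by symbol. The elements were searched as exact letters on both strands. The ER stress element, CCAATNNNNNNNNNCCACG, which ATF6 binds together with NF-Y, was present in 8 of the 33 members (24.2%) against 25 of 27305 genes in the table (0.0916%). Its second form, ATTGGNCCACG, was present in 3 members (9.09%) against 0.0696% of all genes. Either form was held by 11 members (33.3%) and by 44 genes in all (0.161%), so members made up 25% of the genes that hold one. Counted over single promoters of this length, the first form was in 0.0769% and the second in 0.0541% of 35116.

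The matches to the ER stress element are given below in the direction of the gene with the matched letters in capitals, which read as the reverse complement where the element lies on the opposite strand. Flanks are up to 20 bases, or 5 bases where the longer window touches an annotated exon.
HSPA5 (chr9:125241386-125241414, minus strand): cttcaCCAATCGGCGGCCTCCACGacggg
HSP90B1 distal (chr12:103930211-103930239, plus strand): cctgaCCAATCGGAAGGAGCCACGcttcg
HSP90B1 proximal (chr12:103930316-103930344, plus strand): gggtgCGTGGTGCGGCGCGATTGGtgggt
CALR (chr19:12938364-12938422, plus strand): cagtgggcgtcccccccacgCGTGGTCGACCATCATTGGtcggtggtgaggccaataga
CANX (chr5:179698773-179698801, plus strand): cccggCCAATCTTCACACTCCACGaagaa
CRELD2 (chr22:49918534-49918592, plus strand): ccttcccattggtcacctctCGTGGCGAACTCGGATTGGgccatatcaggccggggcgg
PDIA6 (chr2:10812848-10812876, minus strand): ccggaCCAATGAGCCGCAGCCACGgcttg
ERO1B (chr1:236282163-236282208, minus strand): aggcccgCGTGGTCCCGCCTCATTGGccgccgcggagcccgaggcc
XBP1 (chr22:28800598-28800626, minus strand): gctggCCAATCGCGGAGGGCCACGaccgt

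The second form was found in the promoters of HERPUD1, HYOU1 and SDF2L1, with 2 copies in HYOU1.
HERPUD1 (chr16:56932005-56932055, plus strand): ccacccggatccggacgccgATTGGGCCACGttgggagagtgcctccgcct
HYOU1 proximal (chr11:119057254-119057304, minus strand): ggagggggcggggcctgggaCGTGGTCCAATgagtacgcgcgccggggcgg
HYOU1 distal (chr11:119057360-119057410, minus strand): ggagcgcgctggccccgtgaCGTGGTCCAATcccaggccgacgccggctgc
SDF2L1 (chr22:21642094-21642144, plus strand): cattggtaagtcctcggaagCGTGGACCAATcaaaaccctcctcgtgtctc

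The XBP1-type element TGACGTGG was found in 1 member, HYOU1, where it overlaps the distal copy above, against 0.927% of all genes and 0.729% of promoters. The C/EBP-ATF element TGATGNAA, the site type bound by ATF4 with a C/EBP partner, was found in 3 members (9.09%) against 4.46% of all genes and 3.62% of promoters. These were ASNS, CHAC1 and HERPUD1, of which ASNS and CHAC1 are known ATF4 targets.
ASNS (chr7:97872464-97872481, minus strand): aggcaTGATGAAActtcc
CHAC1 (chr15:40953257-40953274, plus strand): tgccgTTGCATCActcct
HERPUD1 C/EBP-ATF match (chr16:56931946-56931993, plus strand): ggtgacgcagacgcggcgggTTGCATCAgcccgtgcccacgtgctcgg

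**Figure D1:**
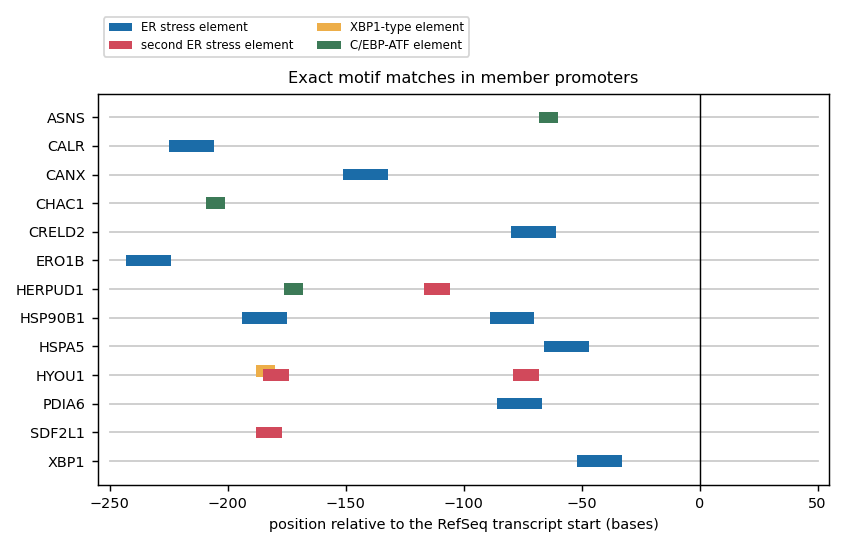
Exact matches to the 4 elements in the promoters of the 13 members that hold one, by distance in bases from the RefSeq transcript start (0 on the axis). Bars span the matched bases. All matches lie before the start, from 34 bases (XBP1) to 243 bases (ERO1B) away.

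A match is a run of letters and not a measured binding site. The 11 members with either form of the ER stress element had fitted log2 fold changes, labelled knockdown against control, from -0.26 to 0.21 with a median of -0.08. The 22 other matched members ran from -0.35 to 0.17 with a median of -0.10. In these promoters DNAJB11, EDEM1 and MANF, the members with the lowest p-values below, held none of the 4 elements. Among 145 matched genes of the wider pathway lists, 1 held either form, SERP1, which encodes a protein that protects newly made membrane proteins. The XBP1-type element was held by 10 of these 145 (6.9%, against 3.03% of members) and the C/EBP-ATF element also by 10 (6.9%, against 9.09% of members).

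Levels were compared between genes per length, as reads per base of merged exon scaled to the same sum in each library (a TPM-like level, mean of 6 libraries). CALR, which encodes the lectin chaperone calreticulin, was the highest member at 1476, above 99.8% of the 20250 tested genes. HSPA5, encoding BiP, the main Hsp70 of the compartment, followed at 474, ATF4 at 402 and HSP90B1, encoding the Hsp90 family chaperone GRP94, at 398. The isomerase genes PDIA4, PDIA6 and P4HB lay at 367, 313 and 286 and PDIA3 at 198. Merged exons include rare long transcripts, which lowers some genes more than others. With the length of the GENCODE 29 principal transcript, a choice made after the data were seen, CALR stayed first at 1354, HSP90B1 came next at 1135, then P4HB at 761 and HSPA5 at 493, and ATF4 lay lower at 324.

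The sensors lay far below the abundant chaperones on the same scale, though not below all of the chaperone group. ATF6 lay at 26.8, beside CRELD2 at 26.1 and DNAJB11 at 35.1, ERN1 lay at 19 and EIF2AK3 at 6.84. With the principal transcript length these sensors lay at 31.8, 28.8 and 19, and ATF6 and ERN1 then passed DNAJB9 at 26.9 and DNAJC3 at 27.2. CRELD2 and DNAJB11 lay at 61.8 and 85.65 with that length, well above ATF6. On merged exons XBP1, the substrate of the ERN1 ribonuclease, lay at 135. In the ATF4 branch PPP1R15A, a phosphatase subunit that reverses the translation block, lay at 133, TRIB3, a pseudokinase, at 83.5 and DDIT3, which encodes the transcription factor CHOP, at 41. CHAC1, a glutathione-degrading enzyme gene, lay at 34.8. ASNS, the asparagine synthetase gene, lay at 2.4, near the bottom of the list. Reads that overlap several genes were not counted, and 49.3% of the merged exon bases of ASNS and 39.6% of those of DDIT3 are shared with other annotated genes, so both levels may be too low.

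The 2 oxidase genes, whose products reoxidise the isomerases, differed widely in level. ERO1A lay at 187 and its paralog ERO1B at 1.36. Of the derlin genes, which encode membrane proteins of the export channel for degradation, DERL1 lay at 101 and DERL2 at 31.9. DERL3 had 0, 4 and 2 reads in control replicates 1, 2 and 3 and 2 reads in each library labelled knockdown, and it was the 1 member that did not pass the filter. Of its merged exon bases 77% are shared with SMARCB1, so its count need not reflect its RNA level. SEC61B, a subunit of the translocon through which proteins enter, lay at 129.

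**Figure D2:**
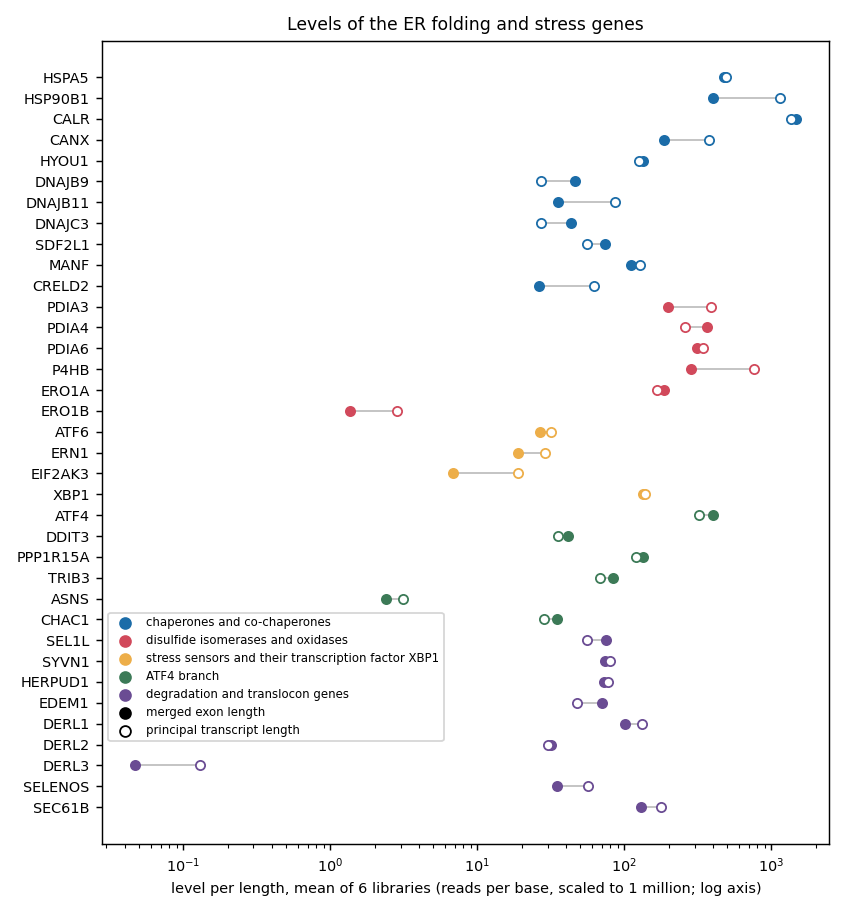
Level per length of all 36 members on a log axis, as the mean of 6 libraries. Filled points use the merged exon length and open points the principal transcript length, coloured by role. CALR is highest with both lengths, and DERL3, ERO1B and ASNS are the 3 lowest.

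The central comparison was between the libraries labelled NNMT knockdown and the controls. None of the 35 tested members passed an adjusted p of 0.05 by edgeR's quasi-likelihood test with Benjamini-Hochberg adjustment, and 0 of all 20250 genes did (0.0%). Each member had an adjusted p of 0.9995. In bulk RNA a change in the make-up of the culture and a change in RNA per cell cannot be told apart. An unadjusted p under 0.05 was found for 3 members, DNAJB11, EDEM1 and MANF, all with lower values in the labelled libraries. That is 8.57% of the members, against 4.03% of all genes tested, of which 2.05% were lower and 1.98% higher. The groups did not overlap for 4 members, DNAJB11, EDEM1, DERL1 and CANX, again all lower, which is 11.4% against 9.2% of all genes (4.88% lower and 4.32% higher). Both shares rest on 3 or 4 genes. DESeq2 and limma-voom called 0 members at an adjusted p under 0.05. The unadjusted p was under 0.05 for 4 of 36 members in DESeq2 (11.1%, against 2.52% of 37856 genes). DESeq2 was run without the filter on low counts, so this share is over a larger set of genes. In limma-voom the number was 3 of 35 (8.57%, against 4.35% of the 20250 genes). DNAJC3 was among these members in both, and MANF was not in limma-voom.

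Fitted fold changes were small. They ran from -0.35 for DNAJC3 to 0.21 for SDF2L1 on the log2 scale, and the median was -0.10 against 0.0033 over all genes. Of the 35, 25 lay below 0 (71.4%), against 49.2% of all genes. The members share the same 6 libraries, and many vary in a like way across them, as described further on, so these are not 35 separate observations. The 95% interval of the fold lay within 1.5-fold of control in either direction for 30 of 35 members (85.7%) and within 2-fold for all 35. The 1.5-fold share was 52.7% for all genes and 89.8% for the 176 tested genes of the wider pathway lists, so it does not set the members apart.

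**Figure D3:**
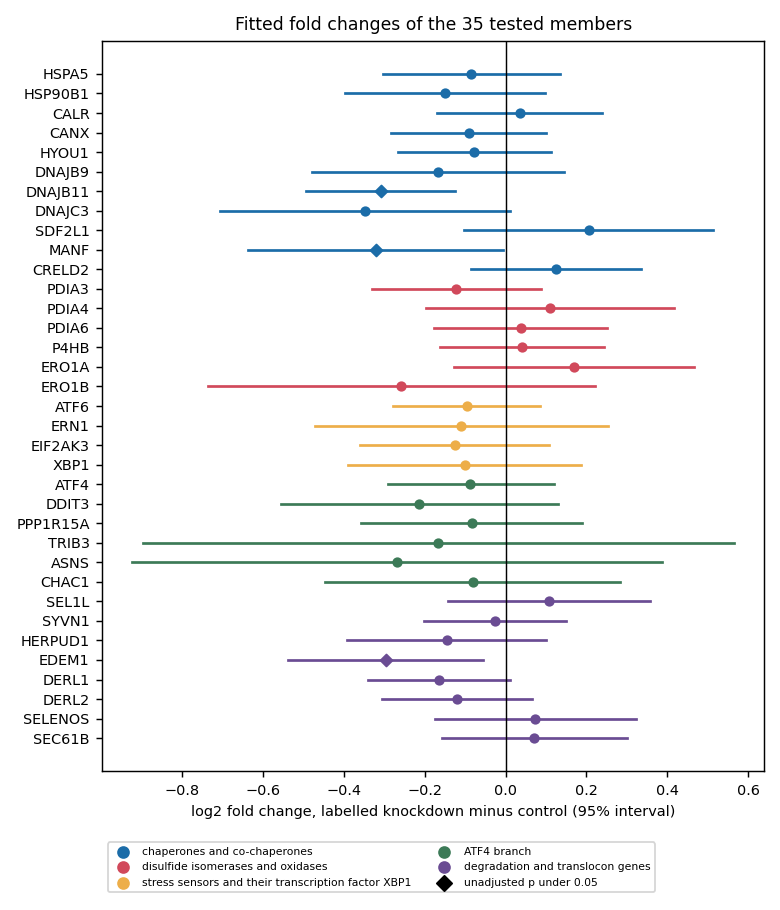
Fitted log2 fold change of the 35 tested members, labelled knockdown minus control, with 95% intervals from edgeR's quasi-likelihood fit, coloured by role. Diamonds mark the 3 members with an unadjusted p under 0.05. Most points sit left of 0, and the intervals of TRIB3 and ASNS are the widest.

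Among the chaperones and co-chaperones 8 of 11 lay below 0, with a median of -0.09, and 0 passed the adjusted threshold. DNAJB11 (chromosome 3, 186567403 to 186585800, hg38) encodes ERdj3, a co-chaperone that brings unfolded clients to BiP. It measured 88.4, 89.2 and 84.8 CPM in control replicates 1, 2 and 3 and 67.4, 67.5 and 76.8 CPM in the corresponding labelled replicates. Every control library lay above every labelled one, and labelled replicate 3 was nearest to the controls. The means were 87.5 ± 2.33 and 70.6 ± 5.41 CPM (SD, n = 3 each), a log2 fold change of -0.31 (SE 0.0834; unadjusted p = 0.00358, adjusted p = 0.9995, both from edgeR).

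MANF (chromosome 3, 51385291 to 51389397) encodes a small secreted protein of the compartment that binds BiP. It measured 68.7, 68.4 and 52.5 CPM in control and 43.4, 48.2 and 59.9 CPM in labelled libraries. Control replicate 3 lay below labelled replicate 3, so the groups overlapped. Its log2 fold change was -0.32 (SE 0.141; unadjusted p = 0.0469 in edgeR). CANX, the gene of the membrane-bound lectin chaperone calnexin, measured 624, 639 and 648 CPM in control and 575, 597 and 622 CPM in labelled libraries. The groups were separated by a narrow gap between 622 and 624 CPM, and the fold change was 0.938 with a 95% interval from 0.822 to 1.07. The groups overlapped for CANX with upper-quartile scaling, with library totals alone, with the stricter filter and with halved counts.

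HSPA5, the standard readout of the response, measured 718, 778 and 795 CPM in control and 685, 683 and 791 CPM in labelled libraries. Labelled replicate 3 lay among the controls, and the difference of the means, 763 ± 40.3 against 720 ± 61.9 CPM (SD, n = 3), was within the spread of the replicates. Its fold change had a 95% interval from 0.81 to 1.1 (unadjusted p = 0.411 in edgeR). The interval of HSP90B1 ran from 0.759 to 1.07 and that of CALR from 0.889 to 1.18. DNAJC3, which encodes the PERK inhibitor p58IPK, had the most negative estimate of all members (log2 fold change -0.35, SE 0.158, unadjusted p = 0.0558). Its p was under 0.05 in 7 of 16 alternatives, among them DESeq2, limma-voom and the fits without control replicate 1 or labelled replicate 3, and ran from 0.000657 to 0.175. It measured 55.3, 73.8 and 66.9 CPM in control and 42.6, 48.1 and 63.4 CPM in labelled libraries, with overlap. SDF2L1, a subunit of the BiP and ERdj3 complex, and CRELD2, an induced folding factor, were 2 of the 3 chaperone-group genes with estimates above 0, at 0.21 and 0.12, CALR being the other. HYOU1, an Hsp110 family exchange factor for BiP, and DNAJB9, a BiP co-chaperone, had estimates of -0.08 and -0.17 with overlapping groups.

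Of the disulfide isomerase and oxidase genes 2 of 6 lay below 0, with a median of 0.04. PDIA3, encoding the glycoprotein isomerase ERp57, had the lowest p of these (unadjusted p = 0.227). It measured 607, 548 and 595 CPM in control and 514, 512 and 582 CPM in labelled libraries. Labelled replicate 3 lay above control replicate 2, and the interval of the fold ran from 0.795 to 1.06. PDIA4 was highest in labelled replicate 2, at 366 CPM, against 244 to 296 CPM in the other 5 libraries. ERO1A was highest in labelled replicate 1, at 419 CPM, against 290 to 364 CPM elsewhere. PDIA6 and P4HB, both disulfide isomerase genes, had estimates of 0.04 each, and ERO1B had -0.26 with an interval of the fold from 0.6 to 1.16.

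All 4 genes of the sensor group had estimates below 0, from -0.13 to -0.10, with 0 past the adjusted threshold and none at an unadjusted p under 0.05. EIF2AK3 had the lowest p of these (unadjusted p = 0.26), with 31.3, 38.3 and 36.7 CPM in control and 33.2, 29.8 and 34.5 CPM in labelled libraries, which overlapped. XBP1 measured 84.3, 113 and 106 CPM in control and 98, 80.3 and 105 CPM in labelled libraries. Control replicate 1 and labelled replicate 2 were both low, and the interval of its fold ran from 0.763 to 1.14 (unadjusted p = 0.451 in edgeR). ATF6 measured 94.8 ± 6.62 CPM in control and 88.6 ± 2.94 CPM in labelled libraries and ERN1 90.2 ± 17.9 and 83.7 ± 12.2 CPM (SD, n = 3). Over the 16 alternatives the log2 fold change of ERN1 ran from -0.26 to 0.02. Counts per gene do not separate the spliced and unspliced forms of XBP1 RNA, nor do RNA levels show cleavage of ATF6 or phosphorylation of PERK, so activity of the sensors was not measured.

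The 6 ATF4 branch genes also had estimates below 0 in the fit to all 6 libraries, with a median of -0.13, and 0 reached an unadjusted p under 0.05. In some of the 16 alternatives the estimates of TRIB3, CHAC1 and PPP1R15A lay above 0, up to 0.09, 0.04 and 0.02. ATF4 measured 245, 285 and 248 CPM in control and 259, 231 and 243 CPM in labelled libraries, with overlap and an interval of the fold from 0.817 to 1.09. PPP1R15A had an estimate of -0.08, also with overlap. DDIT3 measured 12.4, 17 and 12.1 CPM against 11.2, 11.6 and 13 CPM, and control replicate 2 alone stood above the other 5 libraries. For TRIB3 and ASNS the controls differed among themselves more than the groups did. TRIB3 measured 42.4, 73.9 and 92.1 CPM in control and 55.9, 56.3 and 73.8 CPM in labelled libraries, a 2.17-fold range within the controls. ASNS measured 1.9, 3.21 and 4.1 CPM against 2.42, 2.06 and 3.2 CPM, a 2.15-fold range within the controls. Both were lowest in control replicate 1 and highest in control replicate 3, which have the lowest and the highest read total of the controls (41591436 and 56067484); the part of depth in this was not tested. CHAC1 was near 20 CPM in control replicate 3 and labelled replicate 3, at 20.5 and 20.6 CPM, and at 14.4 to 17.3 CPM in the other 4 libraries.

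Of the 8 tested degradation and translocon genes 5 lay below 0, with a median of -0.07. EDEM1 (chromosome 3, 5187646 to 5219958) encodes a lectin-like protein that hands misfolded glycoproteins to degradation. It measured 124, 121 and 129 CPM in control and 88.9, 95.9 and 120 CPM in labelled libraries. The groups did not overlap, but labelled replicate 3, at 119.7 CPM, lay just under control replicate 2, at 120.8 CPM. The log2 fold change was -0.30 (SE 0.109; unadjusted p = 0.0201 in edgeR). The unadjusted p was not under 0.05 without control replicate 3, labelled replicate 1 or labelled replicate 2, and it ran from 0.000979 to 0.0887 over all alternatives.

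DERL1 measured 176, 176 and 183 CPM in control and 153, 156 and 168 CPM in labelled libraries, without overlap, and its fold change had a 95% interval from 0.789 to 1.01 (unadjusted p = 0.063). HERPUD1, an induced membrane protein of the degradation complex, measured 81.3, 104 and 92.1 CPM in control and 82.4, 74.8 and 93.6 CPM in labelled libraries, which overlapped (interval of the fold 0.762 to 1.07). SYVN1, the ubiquitin ligase HRD1, and SEL1L, its partner, had intervals from 0.869 to 1.11 and from 0.906 to 1.28. DERL2 had an estimate of -0.12, while SELENOS, a selenoprotein of the degradation complex, and SEC61B had estimates of 0.07 each.

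**Figure D4:**
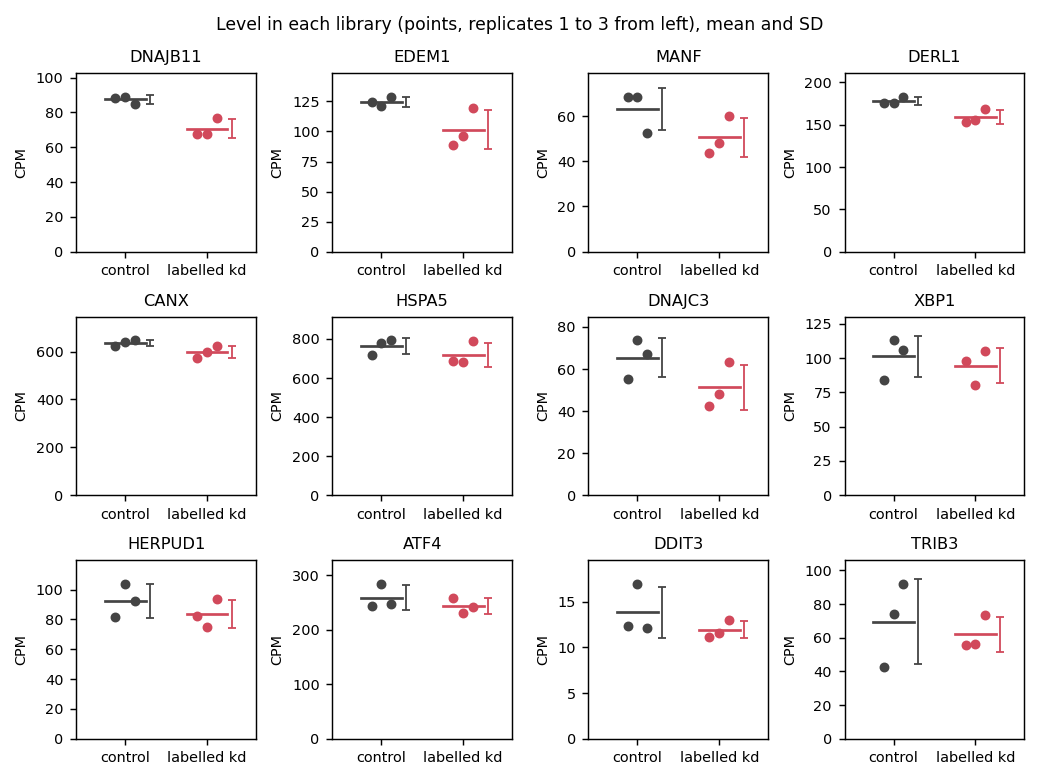
Level in CPM of 12 members in each library, with axes from 0. Points are replicates 1 to 3 from left to right in each group, the horizontal line is the mean and the bar is the SD (n = 3). DNAJB11, EDEM1, DERL1 and CANX show no overlap, whereas the 3 controls of TRIB3 run from 42.4 to 92.1 CPM.

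Many members varied by library in a like way. Control replicate 2 was the highest library for 12 of 35 members (34.3%, against 16.3% of all genes) and control replicate 3 for 11 (31.4% against 17%). Labelled replicate 1 was the lowest library for 12 members (34.3% against 18.6%) and labelled replicate 2 for 10 (28.6% against 19.7%). Labelled replicate 3 was the lowest library for 0 members (0%, against 12.2% of all genes). Its median deviation from the mean of the 6 libraries was 0.04 on the log2 scale, above the -0.04 of control replicate 1. In the sensor and ATF4 groups control replicate 1 was low, with median deviations of -0.16 and -0.11, while control replicate 2 was high at 0.16 and 0.23. In the disulfide group control replicate 2 was the highest library for 0 of 6 genes (median deviation -0.07), and labelled replicates 1 and 2 were the highest for 2 each. The range over the 6 libraries had a median of 0.40 on the log2 scale for members, below the 0.57 of all genes. It was above the 0.30 of the tested genes of the wider pathway lists.

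The group difference moved with single libraries. Without 1 library the median of the members ran from -0.16 (without labelled replicate 3) to -0.07 (without control replicate 3). Without labelled replicate 3, 5 had an unadjusted p under 0.05 (14.3%, against 6.63% of all genes). Without control replicate 1 the number was also 5 (against 5.56%), and without labelled replicate 1 it was 1, DNAJB11 (2.86% against 2.59%). DNAJB11 had an unadjusted p under 0.05 in all 16 alternatives, from 0.00194 to 0.017, with adjusted p from 0.297 to 0.9999 across edgeR, DESeq2 and limma-voom. MANF had one in 8 of 16, with a range from 0.00172 to 0.156, and not without control replicate 1 or 2 or labelled replicate 1 or 2, nor with the stricter filter, halved counts, limma-voom or the replicate block.

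**Figure D5:**
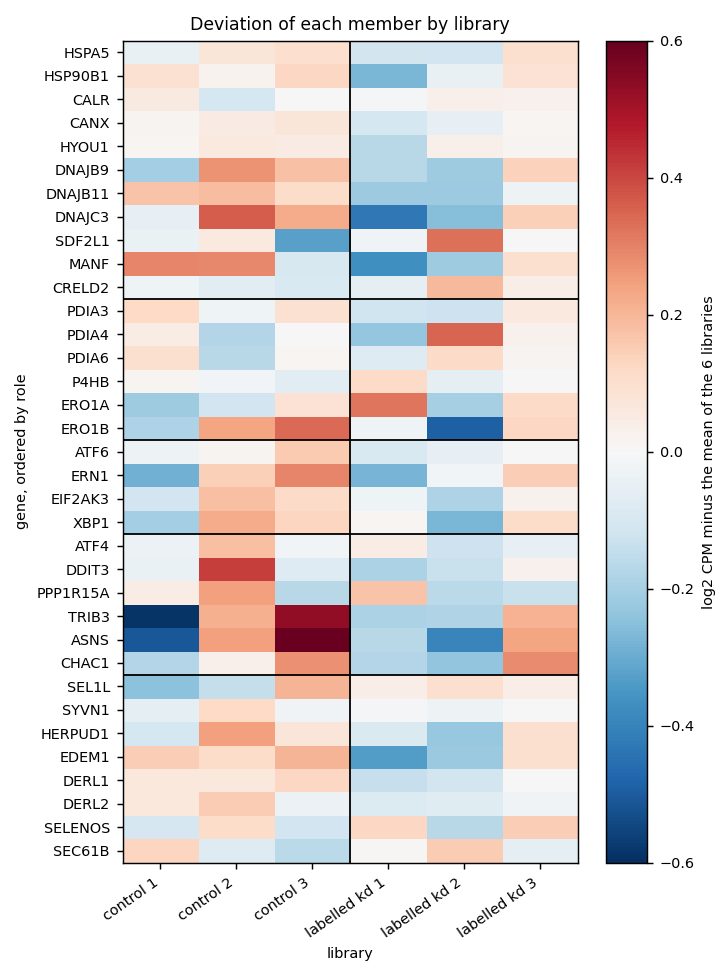
Deviation of log2 CPM from the mean of the 6 libraries for the 35 tested members, ordered by role, with controls left of the vertical line. Red is above and blue below the mean. Control replicates 2 and 3 are mostly red and labelled replicates 1 and 2 mostly blue, while labelled replicate 3 has a median near 0 (0.04).

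Other genes of the pathway were read from 5 lists holding 181 genes, of which 176 were tested. None of these genes passed the adjusted threshold, and 6 had an unadjusted p under 0.05, 3 higher and 3 lower (3.41%, against 4.03% of all genes). Their median log2 fold change was -0.02, and 98 of 176 lay below 0 (55.7%). Of 34 other folding genes 0 had an unadjusted p under 0.05, and the lowest p belonged to FKBP11 and TMX4, for a prolyl isomerase and a membrane thioredoxin, and to ERP29. FKBP11 measured 31.8 ± 3.46 CPM in control and 26.9 ± 1.92 CPM in labelled libraries (SD, n = 3). Of 38 other degradation genes 0 had an unadjusted p under 0.05, and TMUB2, OS9 and SELENOK came first. OS9, a lectin that works with SEL1L, measured 268 ± 1.49 and 237 ± 15.3 CPM, without overlap.

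Of 32 translocon, signal peptidase and glycosylation genes 2 had an unadjusted p under 0.05, both higher (6.25%, against 4.03% of all genes), and these were small subunits. SEC61G measured 51.1 ± 4.07 and 59.2 ± 1.27 CPM and OST4, of the oligosaccharyl transferase, 42 ± 6.46 and 50.4 ± 4.33 CPM (SD, n = 3). The unadjusted p of SEC61G was under 0.05 in 10 of 16 alternatives and that of OST4 in 8. Without control replicate 3 neither was under 0.05, with log2 fold changes of 0.15 each. SEC62 came next, with an estimate of -0.21. Of 28 other regulators 0 had an unadjusted p under 0.05, with TMBIM6, WFS1 and DAB2IP first.

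Among 44 other integrated stress response genes 4 had an unadjusted p under 0.05 (9.09%, against 4.03%), 3 lower and 1 higher. ATF3, a transcription factor gene induced by ATF4, measured 10.2, 11.7 and 10.2 CPM in control and 7.18, 6.3 and 8.8 CPM in labelled libraries. All 3 controls lay above all 3 labelled libraries, with a log2 fold change of -0.53 (SE 0.161; unadjusted p = 0.00725, adjusted p = 0.9995 in edgeR). SLC38A2, a neutral amino acid transporter gene, measured 1122, 1406 and 1171 CPM in control and 950, 901 and 1092 CPM in labelled libraries, also without overlap (log2 fold change -0.33, SE 0.119). DDIT4, an inhibitor of mTORC1 signalling, had the opposite sign. It measured 39.6, 42.1 and 50.8 CPM in control and 65.6, 47.8 and 60.3 CPM in labelled libraries, with overlap. The unadjusted p of ATF3 was under 0.05 in all 16 alternatives, and those of SLC38A2 and DDIT4 in 13 of 16 each. SLC7A11, the cystine transporter gene, named after its values were seen, had an estimate of -0.32. The median of this list was -0.03, and 23 of 44 genes lay below 0.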

How the data were processed

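The authors deposited raw read counts per gene, made with featureCounts 2.0.6 on hg38 alignments with GENCODE 44, per the file headers. No source used here names the aligner. Multi-mapping reads and reads over several genes were not counted, no strand option was set, and mates appear to have been counted singly, since 73.4% to 76.7% of counts from 2 to 10 were even. Counting precision is therefore lower than the totals imply. The labels call the 3 cultures per group independent biological replicates.

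All genes were tested together with edgeR 4.0.16 (R 4.3.3, quasi-likelihood test, filterByExpr, TMM, robust, group only) and Benjamini-Hochberg adjustment at 0.05. The test was checked on simulated data with changes larger than any member estimate here, so the check does not cover changes of the members' size. CPM are TMM-scaled, except those of the cell type markers, which use library totals. Each SE is the log2 fold change over the root of its F statistic. Alternatives were other scalings, filters, DESeq2 1.42.0, limma-voom (limma 3.58.1), a replicate block, halved counts and leaving out each library. Every pair of libraries differed by more than sampling noise (chi-square per gene 11.97 or more). The lowest value was between control replicate 3 and labelled replicate 3.

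Members and lists were chosen with earlier results of these data known. Values in every library are given for members with an unadjusted p under 0.05 or without overlap, for the lowest p of each role and for HSPA5, XBP1, ATF4, DDIT3 and HERPUD1; DNAJC3, TRIB3, ASNS, CHAC1, PDIA4 and ERO1A were added after their values were seen. Up to 3 genes with the lowest p were named per pathway list. Planned protein sequence features were not analysed here.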

Additional observations from a re-analysis of the deposited data

How the results depend on the processing

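Over 16 alternatives 27 genes with a fitted value were followed here (12 members and 15 other pathway genes). They changed sign in 0 of 432 values over these genes and alternatives, and passed the adjusted threshold in 0. Most of these genes were picked for a low p or separated groups in the same data. Their stable sign is therefore partly fixed by the choice. Members outside these 12 did change sign in some alternatives, namely CALR, CHAC1, ERN1, P4HB, PDIA4, PDIA6, PPP1R15A, SYVN1 and TRIB3. The log2 fold change of TRIB3 ran from -0.42 to 0.09 and that of PDIA4 from -0.06 to 0.24. Members past the adjusted threshold numbered 0 in every alternative. Genes past it over the whole table numbered 72 without a filter on low counts, 8 in DESeq2 and 0 to 1 when a library was left out. Members at an unadjusted p under 0.05 numbered 1 to 5, and members without overlap between groups 6 to 15, when a library was left out; with 2 libraries in a group 14.8% to 22.4% of all genes do not overlap. Same-numbered libraries correlated at 0.0545, -0.0705 and 0.18 after removal of group means. Other pairs of a control and a labelled library ran from -0.2 to 0.13. With 3 libraries per group these values cannot decide whether the numbers pair the samples. With the replicate block 3 members had an unadjusted p under 0.05 (8.57%, against 4.37% of all genes), DNAJB11, EDEM1 and DNAJC3. MANF did not (unadjusted p = 0.0854 in edgeR). Where no read was counted, the limit is 3 reads, which is 0.0535 to 0.074 CPM by library, or 6 counts and 0.107 to 0.148 CPM if both mates of a pair were counted, for counting error only.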
